A study of Mus musculus with 2 samples.

Results

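The tendon genes Scx, Mkx, Tnmd, Thbs4, Comp, Cilp, Cilp2, Angptl7 and Ptx4, 9 of the 32287 features of a single-cell count matrix, were read within and outside tenocyte-like cells of injured muscle. They were chosen by name, with their UMI levels in tenocyte-like against other cells and their co-detection there already known. Levels between classes and co-detection are therefore given as descriptions. The cells came from the tibialis anterior and gastrocnemius of male S100GFPtg mice aged 2 months, in which green fluorescent protein (GFP) is driven by the S100B promoter. They were collected 7 days after the sciatic nerve was crushed, and viable GFP+ cells were sorted into 1 library of a droplet assay that counts the 3' ends of transcripts. Pooled animals are named in the methods and a single injured mouse in the series text, so the number of animals is uncertain. The GFP- library of the same muscle was not analysed here except for its barcodes.

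Tendon cells build and maintain the collagen fibres that link muscle to bone, and in muscle they lie at the tendon ends and along the intramuscular tendon sheets. Scx (scleraxis), a basic helix-loop-helix transcription factor, marks tendon progenitors, and Mkx (Mohawk), a homeobox transcription factor, maintains the expression of tendon matrix genes. Tnmd (tenomodulin) is a membrane protein of maturing tenocytes that lies downstream of Scx. Thbs4 and Comp are thrombospondins of the tendon and cartilage matrix, and Comp takes part in collagen fibril assembly. Cilp and Cilp2 are matrix proteins first described in cartilage, Angptl7 is a secreted angiopoietin-like protein, and Ptx4 is a member of the pentraxin family.

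Each class level below is the sum of a gene's unique molecular identifiers (UMIs) over the cells of a class, per 1000000 UMIs of that class (CPM). Of 36400 barcodes, 18528 had more than 200 genes, under 10% mitochondrial counts and at least 2000 UMIs, and 15976 cells in 31 clusters remained after doublet removal. Of these, 1119 cells in 3 clusters were tenocyte-like, with a median of 3591 UMIs, and 430 of them held at least 5000 UMIs. The most similar class, 3208 mesenchymal-like cells, had a median of 2946 UMIs. The name rested on 16 markers that include none of the 9 genes. All 16 were found, with Fmod (fibromodulin, a proteoglycan of collagen fibrils) at 5461 CPM against 55.4 in mesenchymal-like cells and Kera at 655.2 against 4.49. Of 15 cartilage and bone markers, Spp1 (69.8 against 89.0 CPM in mesenchymal-like cells) and Matn3 (41.9 against 0.90) were the highest in tenocyte-like cells. Sox9 (16.1 against 38.6) and Col2a1 (14.4 against 0.58) came next, while Acan was at 1.31 CPM and Ibsp at 0. Of the joint-lining markers, Prg4 (1907 against 234.8 CPM in mesenchymal-like cells), Hbegf (212.5 against 25.5) and Col22a1 (184.4 against 2.75) were higher in tenocyte-like cells. Creb5 (128.2 against 636.5) and Cd55 (16.0 against 213.0) were lower. Htra4 (6.81 against 6.77), Clic5 (1.05 against 1.74) and Tspan15 (0.52 against 0.58) were low in both classes. The sort marker Gfp was at 295.8 CPM in tenocyte-like cells and S100b itself at 3.67. Of the kept barcodes, 152 also occurred in the GFP- library, 13 of them tenocyte-like. Intervals are 95% and cover counting error only, and with 1 library no test was possible.

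The sequences just upstream of the start sites are shown because Scx belongs to a family of factors that bind E-boxes, the motif CANNTG. RefSeq windows (GRCm38.p6, the 250 bases before the start, read in the direction of the gene) were found for 5 of the 9 genes, and E-boxes are in capitals in the 3 windows below. Tnmd has none (chrX:133850758-133851007, + strand), Cilp2 has 1 (chr8:69887393-69887642, - strand) and Angptl7 has 3 (chr4:148500463-148500712, - strand). Tnmd was chosen as a gene that differed little between the subclusters described later, and the other two as genes that differed more.
Tnmd: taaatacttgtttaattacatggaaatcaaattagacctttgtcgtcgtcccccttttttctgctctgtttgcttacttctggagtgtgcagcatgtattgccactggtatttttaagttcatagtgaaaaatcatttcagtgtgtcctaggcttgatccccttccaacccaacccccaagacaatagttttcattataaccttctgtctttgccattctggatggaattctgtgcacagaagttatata
Cilp2: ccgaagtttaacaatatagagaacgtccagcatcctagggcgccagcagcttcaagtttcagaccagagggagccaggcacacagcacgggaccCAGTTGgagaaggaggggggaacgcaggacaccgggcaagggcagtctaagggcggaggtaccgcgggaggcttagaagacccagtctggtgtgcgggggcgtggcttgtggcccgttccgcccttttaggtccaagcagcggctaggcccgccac
Angptl7: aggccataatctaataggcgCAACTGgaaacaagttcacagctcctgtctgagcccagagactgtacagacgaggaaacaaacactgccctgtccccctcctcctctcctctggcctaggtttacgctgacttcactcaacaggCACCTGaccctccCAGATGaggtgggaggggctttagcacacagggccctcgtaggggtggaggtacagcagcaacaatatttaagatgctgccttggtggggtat
The Cilp2 match starts 156 bases before the start of transcription, and those of Angptl7 lie between 93 and 230 bases before it. Cilp had 3 matches and Thbs4 had 1, and both also differed little between the subclusters (log2 ratios -0.11 and 0.15). The 3 windows shown thus do not represent all 5 genes. Of all 32851 windows of this length, 66.2% held at least 1 match, so a match at this rate is a description of the letters only.

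Both regulators were far higher in tenocyte-like than in mesenchymal-like cells. Scx was at 331.9 CPM (319.1 to 345.1) in tenocyte-like cells and at 4.60 in mesenchymal-like cells, a log2 ratio of 6.17 (5.86 to 6.50). In tenocyte-like cells of at least 5000 UMIs, the Scx level of single cells ran from 0 over a median of 288.6 to 3331 CPM, and 93 of the 430 cells had no Scx UMI. Mkx was at 211.6 CPM (201.4 to 222.2) against 2.01, a log2 ratio of 6.72 (6.26 to 7.22). Its single-cell levels in the same 430 cells ran from 0 over 192.6 to 1646 CPM, with 110 cells at 0. Tenocyte-like cells held 82.0% of the Scx UMIs and 91.9% of the Mkx UMIs of all kept cells, although they were 7.00% of these cells. The kept cells had 3090 of the 4135 Scx UMIs of the library and 1759 of its 2474 Mkx UMIs. Class and cluster shares of a gene's UMIs are of the kept cells throughout. On GRCm39 (GENCODE M39) Scx lies at chr15:76341563-76344281 on the + strand and is overlapped by Bop1 on the other strand. Bop1 was at 18.1 CPM in tenocyte-like and 11.7 in mesenchymal-like cells, far closer together than Scx.

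The membrane protein gene Tnmd was at 1127 CPM in tenocyte-like cells and at 15.3 in mesenchymal-like cells, a log2 ratio of 6.20 (6.03 to 6.37). Its level in the 430 deep cells ran from 0 over 1369 to 6743 CPM, and 31 cells had none. Tenocyte-like cells held 89.6% of its UMIs. Outside them it was highest in smooth muscle/pericyte-like cells, at 92.4 CPM (79.2 to 107.1).

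The matrix genes reached higher levels than the regulators, and Thbs4, Comp and Cilp, but not Cilp2, had a smaller share of their UMIs in tenocyte-like cells. Thbs4 was the most abundant of the 9 genes, at 6309 CPM in tenocyte-like and 428.7 in mesenchymal-like cells, a log2 ratio of 3.88 (3.85 to 3.91). Its single-cell level in the deep cells ran from 0 over 7082 to 34891 CPM, and only 3 of these 430 cells had no Thbs4 UMI. Comp was at 1193 CPM against 60.2, a log2 ratio of 4.31 (4.22 to 4.40), with single deep cells between 0 and 9161 CPM around a median of 1116. Cilp2 was at 675.5 CPM against 7.45, a log2 ratio of 6.50 (6.26 to 6.75). Cilp was at 694.4 CPM against 528.0, a log2 ratio of only 0.40 (0.35 to 0.44). Cilp therefore did not follow the pattern of the list. Tenocyte-like cells held 24.1% of its UMIs, mesenchymal-like cells 45.4% and the unnamed clusters 26.1%. The pair of paralogues thus differed, since 92.2% of Cilp2 UMIs lay in tenocyte-like cells. Over the 4 matrix genes together the tenocyte-like share of UMIs was 66.6%, against 85.6% for Scx and Mkx together. The share was 78.0% for Thbs4 and 73.7% for Comp, so Cilp was far the lowest of the 4. The pooled difference therefore does not hold for each matrix gene.

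Of the secreted proteins, Angptl7 was at 2131 CPM in tenocyte-like and 39.1 in mesenchymal-like cells, a log2 ratio of 5.77 (5.66 to 5.88). It had the widest range between single deep cells of the secreted pair, from 0 over 1372 to 22809 CPM, with 129 of 430 cells at 0. Ptx4 was the least abundant of the 9 genes, at 132.6 CPM against 1.59, a log2 ratio of 6.39 (5.86 to 6.96). In deep cells it ran from 0 over 96.0 to 1472 CPM and 165 cells had none. Angptl7 lies opposite Mtor on GRCm39, at chr4:148579639-148584923 on the - strand. Mtor was at 27.5 CPM in tenocyte-like and 21.8 in mesenchymal-like cells.

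**Figure D1:**
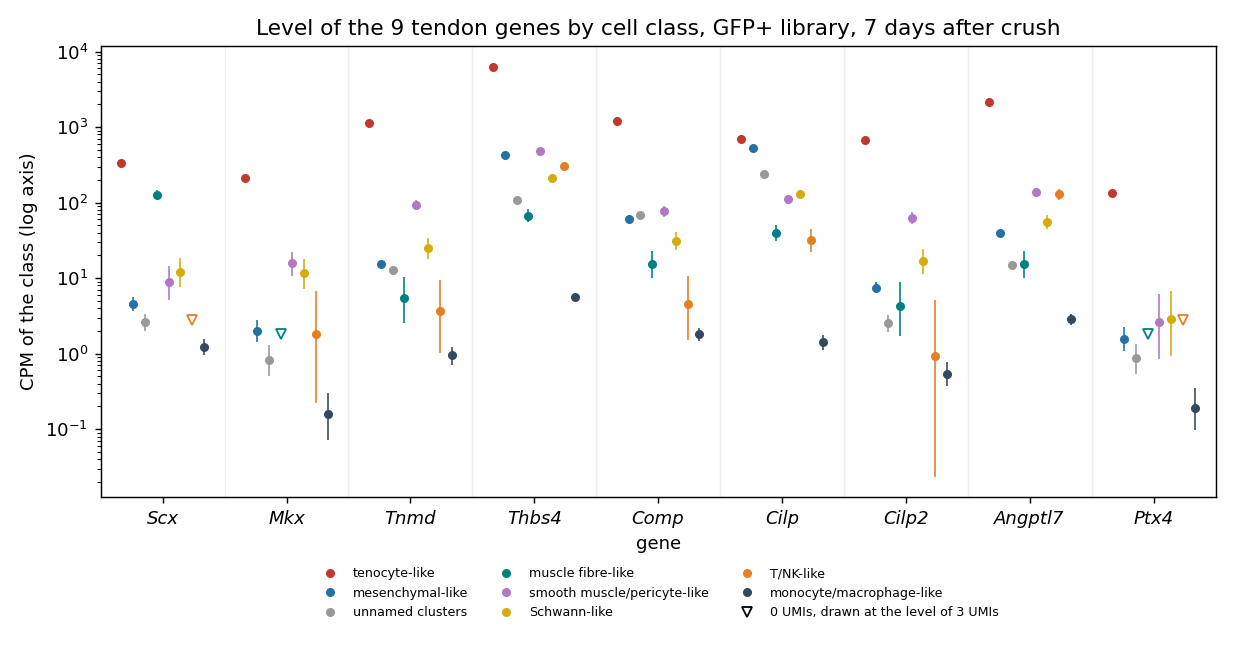
Level of each gene in CPM (log axis) in 8 groups of cells, with exact Poisson 95% intervals, and open triangles where no UMI was found, drawn at the level of 3 UMIs. Tenocyte-like cells are highest for all 9 genes, Cilp in mesenchymal-like cells (528.0 CPM) comes close to its tenocyte-like level (694.4 CPM), and Scx has a second high value in muscle fibre-like cells (127.1 CPM).

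Over the list, 8 of the 9 genes were at least 2-fold higher in tenocyte-like than in mesenchymal-like cells, with Cilp below that size, and the median log2 ratio was 6.17. Of all 9295 genes at or above 10 CPM in either class, 6.30% were at least 2-fold higher and the median log2 ratio was 0.03. This contrast was used to draw up the list, so its count is a description. By fold the 9 genes took places 13 (Mkx), 17 (Cilp2), 20 (Ptx4), 22 (Tnmd), 23 (Scx), 27 (Angptl7), 68 (Comp), 90 (Thbs4) and 1951 (Cilp) among these genes.

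All 9 genes were lower in tenocyte-like cells of 2000 to 4999 UMIs than in deeper ones. Scx was at 120.1 CPM in 689 shallow cells and at 407.0 in the 430 deep ones, Thbs4 at 2952 and 7498, and Cilp at 416.9 and 792.7. The deep level was between 1.90 times (Cilp) and 3.39 times (Scx) the shallow one. The summed level of the 20 monocyte/macrophage markers moved the other way, 10310 CPM in the shallow and 1961 in the deep cells, with none of the 20 at 0. Its part in the lower tendon gene levels was not tested. Between deep cells of the tenocyte-like and mesenchymal-like classes the log2 ratios were larger, at 7.81 for Scx, 8.42 for Mkx, 8.02 for Tnmd, 9.77 for Cilp2 and 8.91 for Ptx4, while Cilp stayed at 0.52.

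Shares of cells with a UMI were compared after each cell was thinned at random to 2000 UMIs. Thbs4 was then found in 93.6% (92.0 to 94.9) of tenocyte-like cells, Tnmd in 59.9%, Angptl7 in 56.5%, Comp in 54.2%, Cilp2 in 49.2% and Cilp in 46.7%. The regulators were seen less often, Scx in 28.6% (26.0 to 31.3) and Mkx in 23.1% (20.7 to 25.7), and Ptx4 in 16.4%. Without thinning the shares were 96.2% for Thbs4, 44.9% for Scx, 40.7% for Mkx and 31.5% for Ptx4. Monocyte/macrophage-like cells, which should lack these genes, had a median of 10283 UMIs and gave 1.76% for Thbs4, 0.48% for Scx, 0.04% for Mkx and 0.52% for Comp when thinned, or 4.82% for Thbs4 and 1.34% for Scx unthinned. Endothelial-like cells, with a median of 3110 UMIs, gave thinned shares of 14.4% for Thbs4, 4.06% for Cilp, 0.37% for Scx and 1.11% for Mkx. A Thbs4 UMI was thus found in more cells than a regulator UMI in both of these classes. Such shares also follow abundance, and in tenocyte-like cells Thbs4 was at 6309 CPM against 331.9 for Scx and 211.6 for Mkx. By UMIs, tenocyte-like cells held 78.0% of Thbs4, 82.0% of Scx and 91.9% of Mkx.

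Outside tenocyte-like cells, Thbs4 and Cilp were high in a group of cells that had few regulator UMIs. The mesenchymal-like cluster 7, led by Fetub, Dio3, Cxcl14, Syndig1 and Hsd11b1, had 913 cells with Thbs4 at 1612 CPM (1574 to 1650) and Cilp at 1689 CPM (1650 to 1728). In the same cells Comp was at 32.2 CPM, Scx at 8.23, Mkx at 6.40 and Tnmd at 19.4. This cluster was 5.71% of the cells and held 33.6% of all Cilp UMIs and 11.4% of all Thbs4 UMIs, but 1.59% of the UMIs of Mkx. After thinning, 69.7% of its cells had Cilp and 64.2% had Thbs4, and 1.64% each had Scx and Mkx. Thbs4 and Cilp were seen together in 458 of them, against 408.2 expected from their shares (1.12).

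Comp outside tenocyte-like cells was highest in other clusters. It was at 136.6 CPM (126.5 to 147.4) in the mesenchymal-like cluster 4, led by Inmt, Gria4 and Gdf10, and at 159.3 CPM (151.0 to 168.0) in the unnamed cluster 11, led by Myoc, Pappa, Trhde, Lsamp and Bmper. Cluster 11 also had Cilp at 592.5 CPM, close to the tenocyte-like level, with Mkx at 1.15 CPM. Outside the class Thbs4 and Cilp were thus both highest in cluster 7, and Comp in cluster 11. Of the other genes, the highest level in any cluster outside the class was 136.4 CPM for Angptl7, 92.4 CPM for Tnmd and 63.0 CPM for Cilp2, all in the smooth muscle/pericyte-like cluster, 127.1 CPM for Scx, 16.7 CPM for Mkx and 5.28 CPM for Ptx4.

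Scx was also high in muscle fibre-like cells, where no Mkx UMI was found. The 267 cells of this class, led by Tnnc2, Acta1, Myl1, Tnnt3 and Mylpf, held 207 Scx UMIs in 70 cells, or 127.1 CPM (110.4 to 145.7), which is 6.70% of all Scx UMIs. Mkx and Ptx4 had 0 UMIs there, where 3 UMIs would be 1.84 CPM, and Tnmd was at 5.53 CPM. Thbs4 was at 67.5 CPM and Cilp at 39.9, with 70.8% of the Cilp UMIs in 5 cells, and after thinning 17.2% of the cells had a matrix gene. Scx was found in 16.5% (12.2 to 21.5) of these cells after thinning, and the 5 cells with most Scx held 32.4% of it. In fibre-like cells of at least 5000 UMIs Scx was at 112.3 CPM while Thbs4 was at 25.5, Cilp at 37.4, Tnmd at 0.85, Comp at 3.40 and Cilp2 at 0. The overlapping gene Bop1 was at 14.7 CPM in the class. The summed level of the 16 tenocyte markers was 232.1 CPM there, against 13596 in tenocyte-like cells, and that of the monocyte/macrophage markers was 19110 CPM. Satellite cell/myoblast-like cells had Scx at 15.7 CPM (11.6 to 20.8), 48 UMIs in 33 of 398 cells, and Mkx at 1.96.

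T/NK-like cells had Thbs4 at 304.8 CPM (272.8 to 339.5), 330 UMIs in 69 of 145 cells, with Comp at 4.62 CPM, Tnmd at 3.69 and no Scx UMI. After thinning 40.7% (32.6 to 49.1) of them had Thbs4. Their summed level of mesenchymal markers was 16274 CPM, against 22792 in tenocyte-like cells, and its part in the Thbs4 level was not tested. Angptl7 had 140 UMIs in this class, of which the 5 highest cells held 87.9%, so that its 129.3 CPM rests on a few cells. The same held for Thbs4 in satellite cell/myoblast-like cells (59.9 CPM), where the 5 highest cells held 86.3% of 183 UMIs.

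The proportions of the genes to each other also differed between classes. In tenocyte-like cells there were 178.6 Angptl7 UMIs for each 100 of Comp. Smooth muscle/pericyte-like cells had 178.1, Schwann-like cells 177.8 and mesenchymal-like cells 65.0. For Thbs4 the numbers for each 100 of Comp were 528.8, 624.7, 677.8 and 712.6 in the same order of classes, and for Cilp they were 58.2, 145.2, 418.5 and 877.6. The Angptl7 numbers of the first 3 classes lay close together and the Cilp numbers did not. The Schwann-like values rest on 54 Comp UMIs, and T/NK-like cells held only 5, too few for a ratio. The part of free RNA in these levels was not tested. Mkx in the Schwann-like cluster 30 was at 16.7 CPM (8.88 to 28.5) with Tnmd at 1.29, but this rested on 13 UMIs, and no cell of it had Mkx after thinning.

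Regulators and matrix genes were also counted cell by cell. Among thinned tenocyte-like cells, 465 of 1119 (41.6%) had a UMI of a regulator (Scx or Mkx) and of a matrix gene (Thbs4, Comp, Cilp or Cilp2), 628 had a matrix gene only, 4 a regulator only and 22 neither. A regulator was thus found in 41.9% of cells and a matrix gene in 97.7%. Among the cells with a matrix gene 42.5% had a regulator, near the share in all cells. With a matrix gene in nearly every cell, that share could hardly differ, so these counts do not separate regulators from matrix genes. In the mesenchymal-like cluster 7 a matrix gene was found in 84.0% of cells and a regulator in 3.29%. In muscle fibre-like cells 32 cells had a regulator only and 12 had both kinds. With at least 2 matrix genes required, 37.2% of tenocyte-like cells and 2.63% of cluster 7 had both kinds. Counting the genes, a tenocyte-like cell had a median of 4 of the 9 after thinning, and a mesenchymal-like cell 1. Of the cells with at least 7 of the 9 genes, 166 of 170 (97.6%) were tenocyte-like, against 39.7% of the cells with at least 2.

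**Figure D2:**
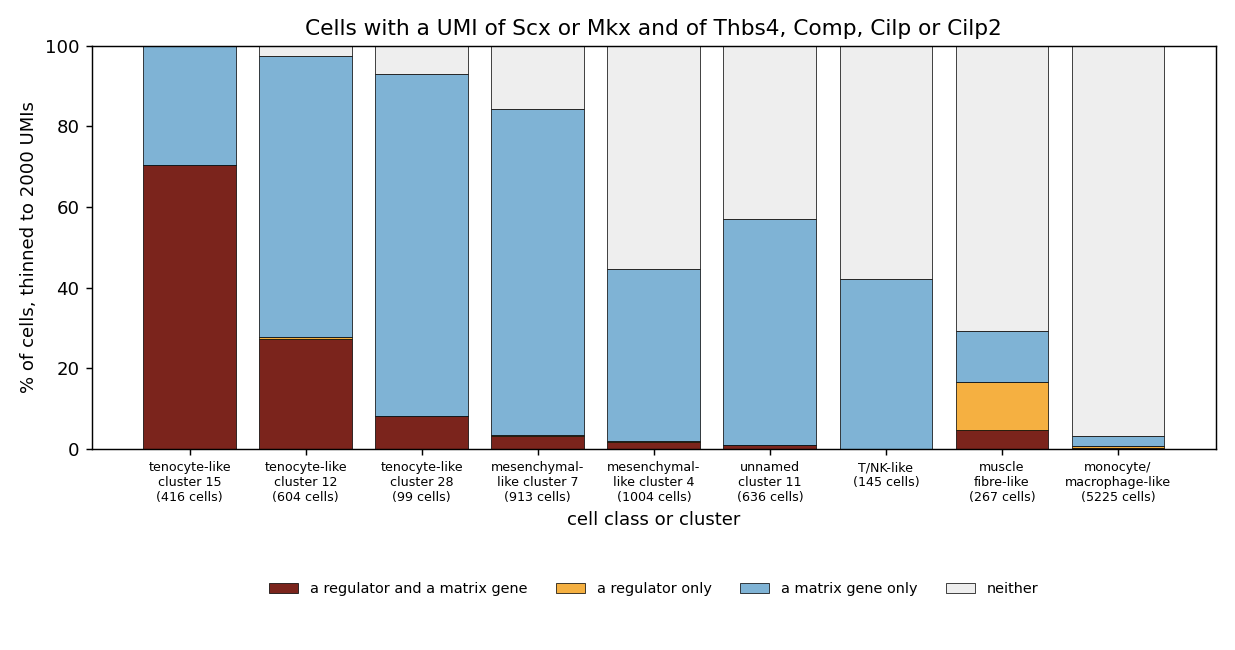
Share of cells (%, thinned to 2000 UMIs) with a UMI of a regulator, of a matrix gene, of both or of neither, in 9 clusters or classes. Both kinds fall from 70.4% in tenocyte-like cluster 15 to 27.2% in cluster 12 and 8.08% in cluster 28, and a regulator without a matrix gene is visible mainly in muscle fibre-like cells.

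The 3 tenocyte-like clusters differed. Cluster 15 (416 cells, median 10327 UMIs, led by Chad, Fmod, Kera, Col22a1 and Cilp2) had Scx at 483.1 CPM, Mkx at 300.2 and Thbs4 at 8799. Cluster 12 (604 cells, median 2660.5 UMIs, led by Ptprt, Cilp2, Col11a2, Bmpr1b and Fmod) had Scx at 101.6, Mkx at 86.1 and Thbs4 at 2488. Cluster 28 (99 cells, led by Lrrc15, Tnn, C1qtnf3, Cthrc1 and Kif26b) had Thbs4 at 1951 CPM and Cilp at 1154 CPM. Angptl7 was at 11.4 CPM there, Cilp2 at 14.2 and Comp at 72.1. No Scx UMI was found in 87 of its 99 cells, no Mkx UMI in 89 and no Tnmd UMI in 76. The tenocyte-like name of cluster 28 thus rests on the marker rule, and few of its cells showed a regulator. Of its Cilp UMIs, 5 cells held 48.6%.

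Clustering the tenocyte-like cells again, without the 9 genes, gave 10 subclusters, and the 2 with the highest median depth were compared. Subcluster 2 (216 cells, median 12038.5 UMIs) was led by Wfdc2, Gpha2, Fgf9, Wif1 and Chil1. Subcluster 3 (188 cells, median 8047 UMIs) was led by Shisal2b, Col22a1, Tnfrsf11b, Rprm and Rapgef4, and Col22a1, a collagen of the junction between muscle and tendon, was at 719.5 CPM there against 3.07 in subcluster 2. Angptl7 was at 4956 CPM in subcluster 2 and 600.4 in subcluster 3, a log2 ratio of 3.05 (2.95 to 3.14). Comp was at 2526 against 626.3 CPM (log2 ratio 2.01, 1.92 to 2.11) and Cilp2 at 1426 against 388.6 (1.88, 1.76 to 2.00). Mkx was at 368.7 against 212.4 CPM, a log2 ratio of 0.80 (0.62 to 0.97). These 4 genes were higher in the cells led by Wfdc2.

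The other direction was taken by Ptx4 and Scx. Ptx4 was at 371.9 CPM in subcluster 3 and 99.0 in subcluster 2, a log2 ratio of 1.91 (1.70 to 2.12) in favour of subcluster 3. Scx was at 636.1 against 418.2 CPM, a log2 ratio of 0.60 (0.48 to 0.73) the same way. The regulators Scx and Mkx thus had opposite directions between the subclusters. Tnmd (1740 and 1622 CPM), Thbs4 (9556 and 8583) and Cilp (742.5 and 801.9) differed by log2 ratios of 0.10, 0.15 and -0.11, smaller than those of the 6 genes above. Taking only cells of at least 5000 UMIs, the log2 ratios were 2.99 for Angptl7, 2.03 for Comp, 1.95 for Cilp2, 0.79 for Mkx, -0.66 for Scx and -1.94 for Ptx4. At 2-fold, 3 of the 9 genes were higher in subcluster 2 and 1 was lower, against 6.44% and 12.1% of the 9174 genes at or above 10 CPM. The median log2 ratio of subcluster 2 to subcluster 3 over those genes was -0.21, so the smaller ratios above are not measured from the middle of all genes. The cells are from the same class and library, so these are descriptions. The summed level of mesenchymal markers was 34451 CPM in subcluster 2 and 12164 in subcluster 3. Dcn, a single marker of that sum, made up 26169 and 8598 CPM of it. The tenocyte marker sum moved the same way, 24359 and 11204 CPM. Monocyte/macrophage markers summed to 434.7 and 1481 CPM.

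Set against Scx within the same cells, subcluster 2 had 1185 Angptl7 UMIs for each 100 of Scx and subcluster 3 had 94.4. The shallow subclusters 4 (185 cells) and 5 (143 cells) had 1219 and 1004, near subcluster 2, and the shallow subcluster 1 (221 cells) had 417.7. Subcluster 6 (73 cells, led by Tnn, H19, Dpp6, Lrrc15 and Adam12) had 84.2, with Scx at 75.0 CPM, Angptl7 at 63.2, Cilp2 at 28.6 and Cilp at 1167, the highest Cilp level of the 10. These levels rest on few cells, since 1 cell held 52 of the 64 Angptl7 UMIs and 5 cells held 80.3% of the Scx, 86.2% of the Cilp2 and 50.0% of the Cilp UMIs. Subclusters 1 and 4 were led by macrophage genes (Retnla and Spp1, Ccl24 and Mgl2) and had monocyte/macrophage marker sums of 17237 and 11647 CPM. Their tenocyte marker sums were smaller, at 3563 and 8250 CPM. These 221 and 185 cells are nevertheless counted as tenocyte-like in all shares and co-detection ratios of the class. All members but Cilp were lower in subcluster 6 than in subclusters 2 and 3.

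**Figure D3:**
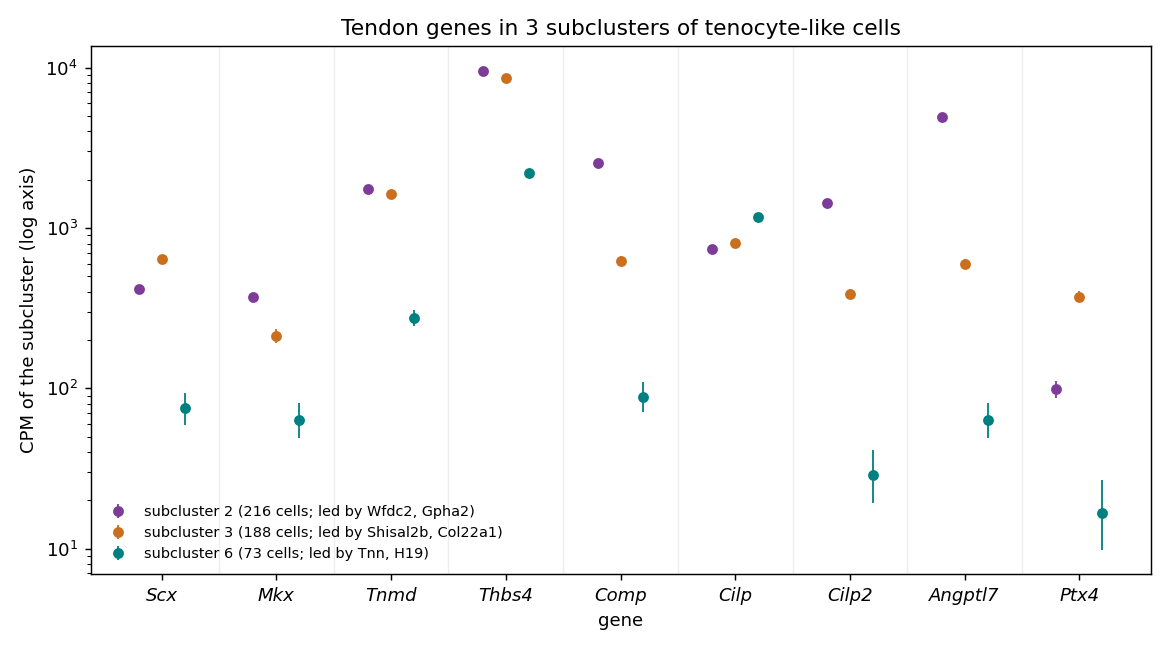
Level of the 9 genes in CPM (log axis) in 3 subclusters of tenocyte-like cells, with exact Poisson 95% intervals. Angptl7, Comp, Ptx4 and Cilp2 separate subclusters 2 and 3 most (log2 ratios 3.05, 2.01, -1.91 and 1.88), Ptx4 and Scx lie higher in subcluster 3, and subcluster 6 has Cilp at 1167 CPM with the other genes below their levels in subclusters 2 and 3.

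Co-detection in single tenocyte-like cells, after thinning to 2000 UMIs, was measured as the number of cells with both genes over the number expected if the genes were independent. Scx and Ptx4 were seen together in 89 cells against 52.6 expected, a ratio of 1.69. A Ptx4 UMI was found in 27.8% of cells with Scx and in 11.9% of cells without. Scx and Mkx gave 1.49 (110 against 74.1), Mkx and Tnmd 1.39 and Scx and Tnmd 1.27. Scx with the matrix genes gave lower ratios, 1.05 with Thbs4, 1.10 with Comp, 1.20 with Cilp and 1.21 with Cilp2, and 1.05 with Angptl7. Mkx gave higher ratios than Scx with Cilp2 (1.40), Comp (1.38) and Angptl7 (1.35), a similar one with Thbs4 (1.07) and a lower one with Cilp (1.12).

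Among the matrix and secreted genes, Comp, Cilp2 and Angptl7 went together. Angptl7 was found in 76.6% of cells with Comp and 32.7% of cells without, a ratio of 1.36, and Comp with Cilp2 gave 1.34. Cilp took no part, with ratios of 1.00 to Comp, 1.03 to Cilp2 and 0.92 to Angptl7. Angptl7 and Ptx4 were seen together less often than expected, in 74 cells against 103.9 (0.71), with Ptx4 in 11.7% of cells with Angptl7 and 22.6% of cells without. Thbs4, found in nearly every cell, could not depart far from 1.

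The tenocyte-like clusters differ in depth and in the level of all 9 genes, so the ratios were also taken within 1 of them. Within the deep cluster 15 alone, Scx and Mkx gave 1.02, Scx and Tnmd 1.01 and Scx and Ptx4 1.19, while Comp and Angptl7 gave 1.28, Angptl7 and Ptx4 0.64 and Comp and Ptx4 0.75. Tnmd was found in 89.7% of the cells of cluster 15, so that its ratios there could not go far above 1. The ratio of Scx and Mkx was thus above 1 over the clusters together and near 1 within cluster 15, whereas that of Angptl7 and Ptx4 was below 1 in both. Within subcluster 3, Comp and Angptl7 gave 1.58 and Angptl7 and Ptx4 0.64. In subcluster 2, Comp was found in 204 and Angptl7 in 202 of the 216 thinned cells, so that their ratio could not depart far from 1.

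Read against all 5477 genes found in at least 5% of the thinned tenocyte-like cells, 2 of the other 8 genes (Ptx4 and Mkx) were found at least 1.5 times as often in cells with Scx as in cells without, and 6.35% of all genes were. For Comp 3 of 8 (Mkx, Angptl7 and Cilp2) reached that size, against 4.93% of all genes. Ptx4 took place 12 in the order for Scx, where the first were Col13a1 (13.8% of cells with Scx and 3.25% of cells without), Col22a1 (20.6% and 6.13%), Mtss2, Rflnb and Ap1s1. For Comp the first were Lepr (8.58% and 1.95%), Sema3a (25.4% and 6.04%), Ndufa4l2 (30.0% and 7.41%), Cybrd1 and Itga2.

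**Figure D4:**
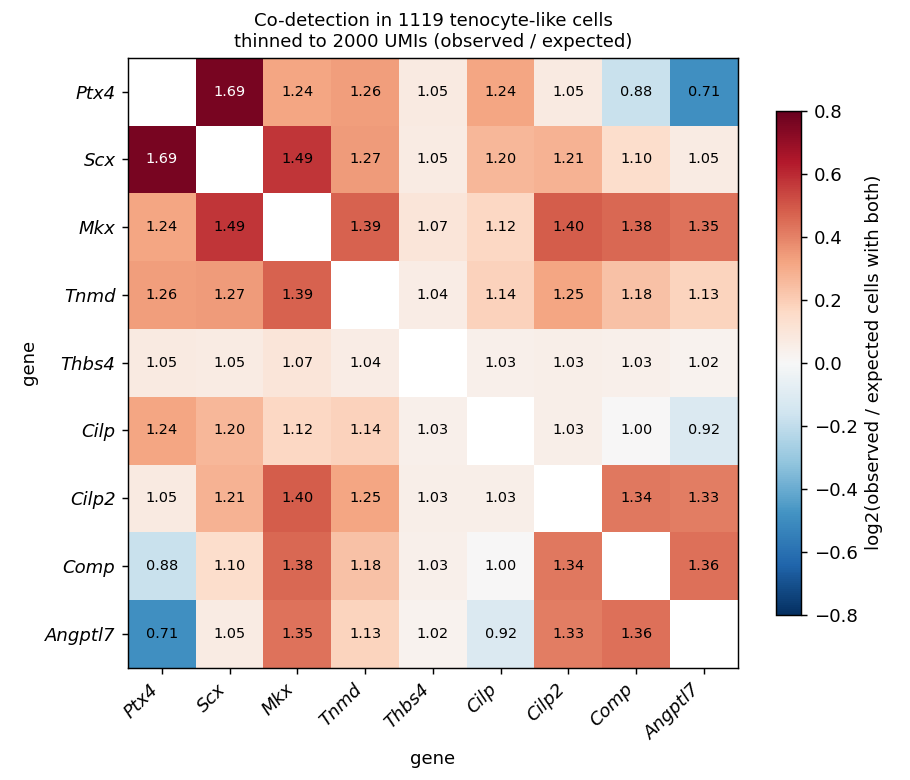
Observed over expected number of cells with both genes for each pair of the 9 genes in 1119 tenocyte-like cells thinned to 2000 UMIs, coloured on a log2 scale from below 1 (blue) to above 1 (red). Scx and Ptx4 (1.69) and Scx and Mkx (1.49) are the highest pairs, Comp, Cilp2 and Angptl7 form a second group with Mkx (1.33 to 1.40), and Angptl7 and Ptx4 (0.71) is the lowest.

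Across the 31 clusters, the genes whose log2(CPM + 1) profile was most like the mean of Scx and Mkx were Kera (Pearson r = 0.91, over 31 clusters), Kcnma1 (0.89), Col22a1 (0.89), Col11a1 (0.86) and Gm2350 (0.86), the last of which overlaps Mkx on the same strand, so their reads may not be told apart. Those most like the mean of the 4 matrix genes were Mfap4 (0.94), Itgbl1 (0.94), Fmod (0.93), Prg4 (0.92) and Ecrg4 (0.92). The clusters share 1 library and differ in depth, so these are descriptions. Scx and Mkx correlated with each other at 0.73 and Scx with Cilp at 0.61, the latter among the lowest of the pairs, while Tnmd and Cilp2 were at 0.93.

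Other tendon genes were counted in 7 lists at the same size of difference, at least 2-fold and 10 CPM. Of the regulators beyond Scx and Mkx, 14 of 16 were measured, 3 were higher in tenocyte-like than in mesenchymal-like cells and 1 was lower, with a list median of 0.06. The higher ones were Six2 (11.8 against 0.48 CPM, log2 ratio 4.63, 3.64 to 5.81), Etv4 (18.9 against 1.85) and Eya2 (108.9 against 45.7), and Sox9 was lower (16.1 against 38.6). Six2 and Eya2 belong to a transcription factor and cofactor pair of developing mesenchyme. Of 18 measured growth factor signals 3 were higher and 2 lower, with the receptor Bmpr1b at 191.6 against 13.6 CPM, the matricellular genes Ccn2 at 1572 against 346.2 and Ccn1 at 623.3 against 246.8, and Fgf2 at 28.3 against 96.9.

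Of the 15 collagens 7 were higher and 2 lower. The cartilage-type fibril collagen genes Col11a1 (662.3 against 7.61 CPM) and Col11a2 (146.8 against 1.85) and Col22a1 (184.4 against 2.75) led, and Col14a1 was lowest at 129.6 against 607.3. Of 16 proteoglycans and glycoproteins 8 were higher and 3 lower, led by Kera, Fmod and Chad (1432 against 15.3 CPM), with Eln (elastin) at 56.7 against 452.6. Kera, Fmod, Chad, Col11a1, Thbs2 and Lox are also among the markers that named the class, and Dpp4 and Pi16 among those of mesenchymal-like cells, so the direction of these genes is not independent of the names. Of 17 crosslinking and processing enzymes 2 were higher, P4ha1 (315.0 against 95.6 CPM) and Lox (704.9 against 241.5), and 3 were lower, with Loxl1 at 123.9 against 356.9. P4ha3, at 16.2 against 8.67, came next.

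Of the 10 measured relatives of the members 4 were higher, among them the thrombospondins Thbs2 (565.4 against 152.7 CPM) and Thbs1 (585.6 against 201.3) and Angptl2 (168.9 against 68.2), and 3 were lower. The pentraxin Ptx3 was at 37.6 against 389.9 CPM, a log2 ratio of -3.37, opposite to Ptx4. Of the 11 measured paratenon, epitenon and progenitor genes 2 were higher, Acta2 (114.2 against 13.2) and S100a4 (1080 against 282.7), and 8 were lower, from Dpp4 (72.5 against 144.8) to Pi16 (42.9 against 907.6), with a list median of -2.70. The share of all genes was 6.30% for higher and 7.98% for lower. At 1.5-fold 12.6% of all genes were higher, and at 2-fold and 50 CPM 6.41%, and 8 of the 9 members were higher by each of these rules.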

How the data were processed

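The authors made the deposited matrix with Cell Ranger, and per the labels its values are raw counts of UMIs per gene and barcode. The submitters' processing notes name Cell Ranger 7.1.0 and Seurat 4.30 with mm10, and the file header names version 8.0.1. The median depth was 2130 UMIs per barcode, over 170648616 UMIs, and 372 barcodes also occurred in the GFP- library. The genes and lists were chosen with earlier results of these data known.

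Barcodes were filtered as stated in the text. Doublets were scored with Scrublet (scanpy 1.11.5) and the highest-scoring 0.4% for each 1000 barcodes were removed, 2552 in all, of which 288 had at least 5000 UMIs. Cells were clustered on 2000 variable genes without the 9 members, 30 components, 20 neighbours and Leiden resolution 1. Tenocyte-like cells were clustered again with 1000 genes, 15 components and resolution 0.5. A class needed 3 markers in at least 10% of a cluster's cells at 1.5 times the level of the other cells, and 4 clusters stayed unnamed, 1 of them, led by Mmp12 and Dcstamp, by a choice made after its values were seen.

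CPM carry exact Poisson intervals, shares exact Clopper-Pearson intervals and log2 ratios exact conditional ones. The named genes are the 9 members, the 3 highest and the 1 lowest gene of each list, the 5 most similar and the 5 most co-detected genes, up to 5 leading genes of a cluster, Gfp and S100b. Genes overlapping a member, and values of Col22a1, Dcn and the joint-lining and cartilage markers, were added after values were seen. Steps were tested on simulated data. Leiden clustering used python-igraph 0.11.9, intervals scipy 1.17.1 and sums numpy 2.4.6, under Python 3.11.15. The alternatives are under the closing section.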

Additional observations from a re-analysis of the deposited data

How the results depend on the processing

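No paired analysis was possible because the comparison lies within 1 library. The 4 summary values and the 3 co-detection pairs are given in a fixed order, the median log2 ratio of the 9 genes to mesenchymal-like cells (6.17), the tenocyte-like share of Scx and Mkx UMIs (85.6%) and of the 4 matrix genes' UMIs (66.6%), the share of tenocyte-like cells with Scx or Mkx (41.9%), and the co-detection ratios of Scx with Ptx4 (1.69), Comp with Angptl7 (1.36) and Angptl7 with Ptx4 (0.71). A minimum of 5000 UMIs gave 7.71, 91.7%, 72.0%, 74.9%, 1.15 and 1.25 for the first 6. A minimum of 1000 UMIs, with thinning to 1000, gave 78.6%, 65.2%, 19.7% and 2.30 for the second to the fifth. For the matrix genes' share, the stricter filter gave 64.3%, no doublet removal 68.5%, resolution 0.5 66.1%, resolution 2 66.3%, 3000 variable genes with the members 67.4%, and leaving out cluster 28 63.3%. The share of cells with a regulator was 36.0% without doublet removal, 38.9% at resolution 0.5, 25.6% thinned to 1000 UMIs, 56.6% unthinned and 45.2% without cluster 28. Comp with Angptl7 gave 1.47 without doublet removal, 1.46 at resolution 0.5, 1.48 thinned to 1000, 1.25 unthinned, 1.26 in cells of at least 5000 UMIs thinned to 5000, 1.28 in cluster 15 alone and 1.27 without cluster 28. Scx with Ptx4 gave 1.18 in the cells thinned to 5000 and 1.19 in cluster 15 alone, and Angptl7 with Ptx4 gave 0.93 unthinned. The median log2 ratio was 6.52 at resolution 2 and 4.86 as a mean over cells. The share of Scx and Mkx UMIs was 86.9% with 3000 variable genes and 83.4% without cluster 28. Over 5 other thinning seeds Scx with Mkx ran from 1.35 to 1.44, below the reported 1.49. Angptl7 with Ptx4 ran from 0.73 to 0.81, above the reported 0.71, and Scx with Ptx4 from 1.58 to 1.75. At a minimum of 5000 UMIs, Scx with Mkx gave 0.96 and Scx with Tnmd 0.99, below 1, where all tenocyte-like cells gave 1.49 and 1.27. The cause of these changes was not tested. Other tendon genes higher in tenocyte-like cells numbered 29, and 43 at 1.5-fold and 26 at 50 CPM. The tenocyte-like class held 1533 cells without doublet removal and 923 under the stricter filter (more than 500 genes, under 5% mitochondrial counts). These included 92.1% and 65.2% of the main tenocyte-like cells. Over all settings, 75 CPM values of single genes left their main interval and 33 stayed. For log2 ratios 59 left and 49 stayed. Scx ran from 236.8 to 504.0 CPM in tenocyte-like cells. The settings on cluster 15, cluster 28 and shared barcodes were chosen after the data were seen.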
